A study of Homo sapiens with 6 samples.

Results

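PRRX1, PRRX2, TWIST1, TWIST2, SNAI1, SNAI2, ZEB1, ZEB2 and SOX9 encode transcription factors that direct or mark mesenchymal cells. The 9 genes were taken by symbol from a table of 26372 genes, and each had 1 row. The libraries came from SH-SY5Y, a human neuroblastoma line, infected with lentivirus carrying a short hairpin RNA (shRNA). The knockdown group (shT2, 3 libraries) carried an shRNA against TDP-43, the RNA-binding protein encoded by TARDBP, and stable knockdown cells were selected and kept in puromycin. The control group (shNC3, 3 libraries) carried a control shRNA in the same pLVX-U6 vector. The labels give 1 hairpin name per group, no clone and no culture of origin, and do not state whether control cells were kept in puromycin. P-values therefore rest on the spread among these libraries alone, and that spread may be technical. Poly(A) RNA was sequenced, and values are FPKM, fragment numbers corrected for the length of the transcript and the size of the library.

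Epithelial to mesenchymal transition is the change by which cells lose their junctions and gain motility, and neural crest cells, from which neuroblastoma arises, pass through it as they leave the neural tube. SNAI and ZEB proteins are zinc finger repressors that bind the E-box letters CACCTG in epithelial genes, TWIST proteins are basic helix-loop-helix (bHLH) factors that pair with E-proteins, PRRX proteins carry a homeodomain, and SOX9 carries an HMG box. Neuroblastoma cells can take a noradrenergic, neuron-like state or a mesenchymal state, and PRRX1 is a core factor of the mesenchymal one.

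TARDBP had 21.9, 20.7 and 21.0 FPKM in the knockdown libraries, against 50.3, 50.3 and 47.7 FPKM in the control libraries, so that the knockdown held 42.8% of the control mean. Depth could be read only as a ratio between libraries, and it was 52.5% to 94.6% of the deepest library in the knockdown and 84.1% to 100% in the control. Of 9 noradrenergic neuroblastoma markers, 7 were higher and 1 lower in the knockdown by the test described next, their summed level ran from 972 to 1079 FPKM in the knockdown and from 531 to 542 FPKM in the control, and TH was listed at 0 in all 6 libraries. Of 9 fibroblast markers, 5 were higher and 4 lower, with sums of 265 to 290.4 FPKM in the knockdown and 384 to 387 FPKM in the control. Of 8 Schwann and glial markers, 6 stayed under the filter, FOXD3 was listed at 0 in all libraries, and the sums ran from 7.58 to 9.14 FPKM in the knockdown and from 2.73 to 2.88 FPKM in the control. Of 7 epithelial markers, 2 were tested and both were lower. CDH1 was near 0 and ESRP1 was listed at 0 in all 6 libraries. EPCAM and GRHL2, under the filter, were higher in every knockdown library than in any control library. EPCAM averaged 0.85 FPKM in the knockdown and 0.285 FPKM in the control, and GRHL2 averaged 0.152 and 0.0247 FPKM. The epithelial sums ran from 11.3 to 11.8 FPKM in the knockdown and from 90.6 to 97.5 FPKM in the control. Nearly all of this was KRT18. Of all tested genes, 66.3% were called, 30.5% higher and 35.9% lower, so calls like these are common. The marker sums differed between the groups, and the markers' part in the results below was not tested.

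The 9 factors did not change as a block. PRRX1 went almost to 0 in the knockdown, TWIST2, SOX9, ZEB1 and ZEB2 fell by smaller amounts, TWIST1, PRRX2 and SNAI1 rose, and SNAI2 did not pass the test. With limma on log2(FPKM + 1) and Benjamini-Hochberg adjustment over 13434 genes with a mean of at least 1 FPKM, the threshold was an adjusted p of 0.05. All 9 were tested, 3 were called higher and 5 lower. Over all tested genes 66.3% were called, 30.5% higher and 35.9% lower, and by at least 2-fold 2 of the 9 rose and 2 fell, against 3.31% and 7.95% of all tested genes. The 3 knockdown values lay apart from the 3 control values in 8 of the 9 factors, against 70.8% of all tested genes. The median log2 fold change of the 9 was -0.30, beside -0.020 over all tested genes. In bulk RNA a change in the share of mesenchymal cells and a change of RNA per cell cannot be told apart.

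**Figure D1:**
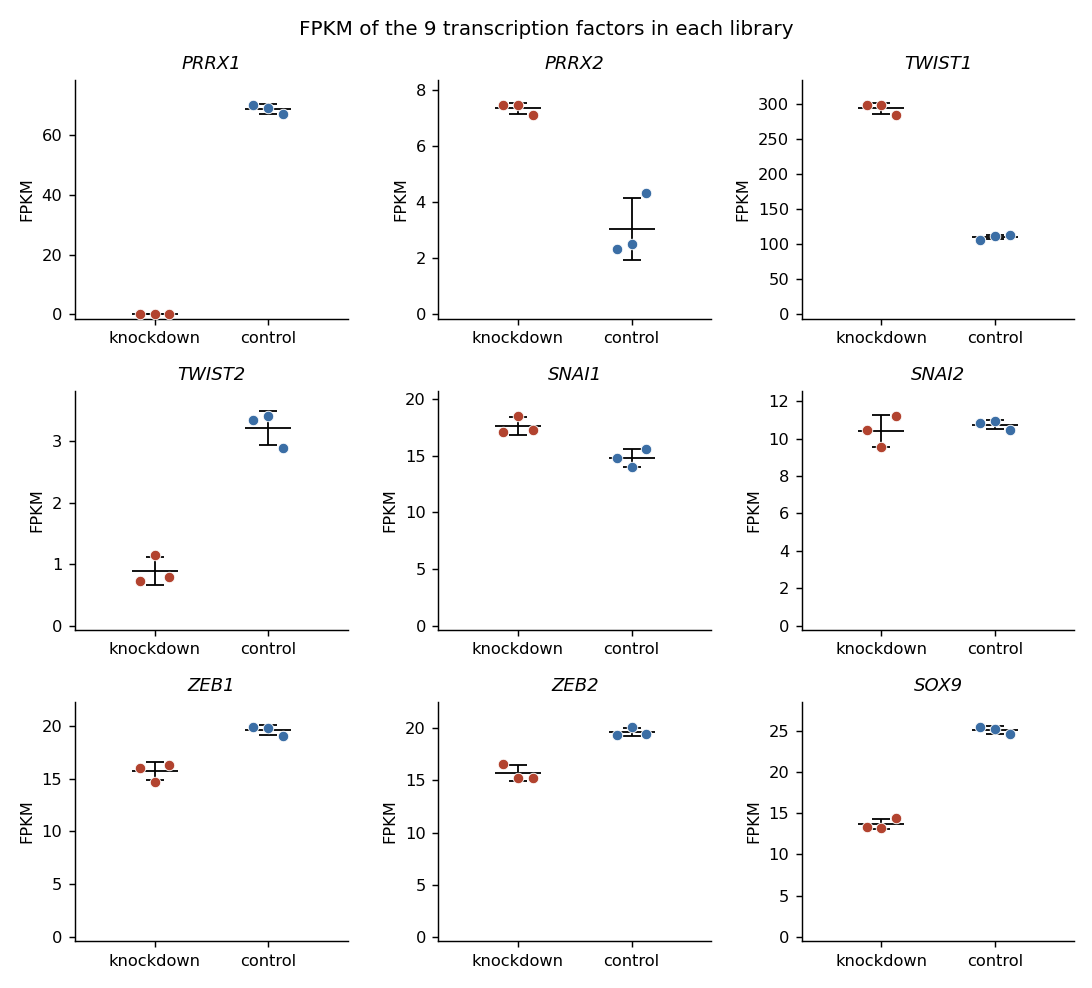
FPKM (vertical axes, each from 0) of the 9 factors in the 3 knockdown and 3 control libraries. Points are libraries, long bars are means and capped bars are SD (n = 3 each). PRRX1 sits at 0 to 0.0304 FPKM in the knockdown and at 66.9 to 70.0 FPKM in the control, TWIST1 is above 285 FPKM in each knockdown library, and only SNAI2 has groups that overlap.

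PRRX1 (chr1:170662768-170739421, RefSeq on GRCh38.p14) encodes a homeodomain factor of limb, craniofacial and other mesenchyme that can push neuroblastoma cells to the mesenchymal state. It was given as 0, 0.0304 and 0.0168 FPKM in the knockdown libraries, against 70.0, 68.8 and 66.9 FPKM in the control libraries. The groups lay far apart, and the knockdown values were at the limit of detection. The non-zero knockdown values, in libraries 2 and 3, stood in a ratio of 1.81, and the depths of libraries 3 and 2 stood in a ratio of 1.80, as an equal number of fragments in each would give. PRRX1 fell by 6.10 on the log2(FPKM + 1) scale (standard error 0.056, limma adjusted p = 2.39e-11), which was the 3rd largest fall of 13434 genes. By mean level it stood 889th of the genes in the table in the control and 18526th in the knockdown. The size of the fall depends on the pseudocount, with -9.22 at a pseudocount of 0.1. Exact two-sided permutation over the 6 libraries gave p = 0.1, the smallest that 3 against 3 allow, for PRRX1 and for each of the 7 other factors whose groups did not overlap.

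PRRX2 (chr9:129665647-129722674), the paralogue of PRRX1, overlaps it in function in mouse limb and face mesenchyme. It had 7.47, 7.46 and 7.10 FPKM in the knockdown libraries, against 2.33, 2.49 and 4.32 FPKM in the control libraries. The 3 knockdown values were close together and above every control value, and control library 3 stood apart from the other control libraries. PRRX2 rose by 1.08 (standard error 0.160, limma adjusted p = 0.000376), and by 1.29 without control library 3. With every column scaled to the same sum (equal column sums) it was 0.34 and missed the threshold (limma adjusted p = 0.0624).

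The proximal promoters of these genes are shown because the paralogues changed in opposite directions, from 250 bases before to 50 after the transcript start (RefSeq, GRCh38.p14, plus strand for both, 5′ to 3′). Capitals would mark the SNAI and ZEB binding letters CACCTG on either strand, and neither window holds them. The windows are chr1:170663881-170664180 for PRRX1 and chr9:129665397-129665696 for PRRX2. The PRRX1 window surrounds a start inside the gene's span, not its outermost base, and the PRRX2 window surrounds the outermost base.
PRRX1: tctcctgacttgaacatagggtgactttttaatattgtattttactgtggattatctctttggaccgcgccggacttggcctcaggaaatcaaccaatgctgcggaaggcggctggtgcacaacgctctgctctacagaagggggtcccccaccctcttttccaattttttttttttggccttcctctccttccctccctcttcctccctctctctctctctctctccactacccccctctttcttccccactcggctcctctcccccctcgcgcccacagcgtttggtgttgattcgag
PRRX2: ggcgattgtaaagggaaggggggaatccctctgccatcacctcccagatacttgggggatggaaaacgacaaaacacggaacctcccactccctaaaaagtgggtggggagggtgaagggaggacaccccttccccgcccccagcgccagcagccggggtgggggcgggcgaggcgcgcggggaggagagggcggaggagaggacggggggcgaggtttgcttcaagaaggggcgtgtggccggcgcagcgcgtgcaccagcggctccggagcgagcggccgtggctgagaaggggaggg
The PRRX1 window is 53.0% G and C with a long run of pyrimidines, and the PRRX2 window is 68.3% G and C. Neither holds the general E-box CANNTG, of which CACCTG is a case. Of 35116 promoter windows of the same length, 20.6% hold CACCTG and 68.7% hold CANNTG. A missing match says only that the letters are not in this window.

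TWIST1 (chr7:19113047-19117636) encodes a bHLH factor of cranial neural crest and mesoderm that is also expressed in neuroblastoma, where it binds enhancers together with MYCN. It had 299, 299 and 285 FPKM in the knockdown libraries, against 107, 112 and 113 FPKM in the control libraries. Every knockdown library was far above any control library, and the means stood in a ratio of 2.66. TWIST1 rose by 1.40 (standard error 0.039, limma adjusted p = 8.90e-09), the 169th largest rise of 13434 genes. It was the most abundant of the 9 in both groups. Its share of the summed FPKM of the 9 was 78.5%, 78.9% and 77.6% in the knockdown libraries, against 39.2%, 40.5% and 40.9% in the control libraries.

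TWIST2 (chr2:238848085-238910534), a close relative of TWIST1 that acts in dermal and craniofacial mesenchyme, went the other way. It had 0.728, 1.16 and 0.790 FPKM in the knockdown libraries, against 3.35, 3.41 and 2.89 FPKM in the control libraries. The groups did not overlap, and all 6 values were low. TWIST2 fell by 1.16 (standard error 0.109, limma adjusted p = 2.13e-05), and the knockdown held 27.7% of the control mean.

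SNAI1 (chr20:49982980-49988886) encodes Snail, the zinc finger repressor known for silencing the E-cadherin gene. It had 17.1, 18.5 and 17.3 FPKM in the knockdown libraries, against 14.8, 14.0 and 15.6 FPKM in the control libraries. The knockdown libraries were all higher by a narrow margin, 1.19 times on the means. SNAI1 rose by 0.24 (standard error 0.058, limma adjusted p = 0.00641), but under equal column sums it was called lower (-0.62).

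SNAI2 (chr8:48917598-48921429) encodes Slug, a repressor of migrating neural crest that is used as a marker of mesenchymal neuroblastoma cells. It had 10.5, 9.54 and 11.2 FPKM in the knockdown libraries, against 10.8, 10.9 and 10.5 FPKM in the control libraries. The groups overlapped. The log2 fold change was -0.044 with a 95% confidence interval of -0.19 to 0.11 (limma adjusted p = 0.579), and p was 0.6 by exact two-sided permutation. Without knockdown library 2, the lowest, it was 0.012. SNAI2 was the only factor of the 9 that did not pass on the deposited scale, and under equal column sums it was called lower (-0.87).

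ZEB1 (chr10:31318417-31529804) and ZEB2 (chr2:144384081-144520119) encode repressors with zinc finger clusters at both ends of the protein, and ZEB2 is required in human neural crest, where its loss of function causes Mowat-Wilson syndrome. ZEB1 had 16.0, 14.7 and 16.3 FPKM in the knockdown libraries, against 19.9, 19.8 and 19.0 FPKM in the control libraries. ZEB2 had 16.6, 15.2 and 15.3 FPKM in the knockdown libraries, against 19.3, 20.1 and 19.5 FPKM in the control libraries. Both genes were lower in every knockdown library, at nearly the same levels as each other. ZEB1 fell by 0.30 (standard error 0.054, limma adjusted p = 0.00114) and ZEB2 fell by 0.31 (standard error 0.053, limma adjusted p = 0.000873). The knockdown held 80.1% of the control mean of ZEB1 and 79.9% of that of ZEB2.

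Since ZEB1 and ZEB2 moved together, a promoter window of each is shown (RefSeq, GRCh38.p14, 5′ to 3′ on the gene's strand), with CACCTG on either strand in capitals. ZEB1 has 7 windows in the table and 2 of them hold the letters, at 4 places in all. The window chr10:31318966-31319265 (plus strand) was picked because it holds the most, and ZEB2 has 1 window, chr2:144520070-144520369 (minus strand).
ZEB1: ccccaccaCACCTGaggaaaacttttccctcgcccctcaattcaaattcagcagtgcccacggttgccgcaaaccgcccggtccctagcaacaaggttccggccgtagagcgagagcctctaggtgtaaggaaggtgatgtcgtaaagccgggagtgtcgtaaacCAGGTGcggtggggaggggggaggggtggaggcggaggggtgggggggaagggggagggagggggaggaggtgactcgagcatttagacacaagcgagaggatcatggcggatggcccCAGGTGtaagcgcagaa
ZEB2: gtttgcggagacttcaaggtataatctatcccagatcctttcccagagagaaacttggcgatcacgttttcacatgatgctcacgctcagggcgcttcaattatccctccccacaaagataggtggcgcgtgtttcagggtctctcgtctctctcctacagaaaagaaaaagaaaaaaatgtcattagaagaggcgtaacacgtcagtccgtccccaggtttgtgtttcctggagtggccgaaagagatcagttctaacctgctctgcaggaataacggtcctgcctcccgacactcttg
The ZEB1 window holds CACCTG 3 times, as the maximum of the 7, and the ZEB2 window does not hold it. Promoter windows of 5 of the 9 factors were searched (PRRX1, PRRX2, TWIST2, ZEB1 and ZEB2), and the TWIST2 window does not hold the letters either. The count of 5 does not mean that the other factors lack a RefSeq promoter. These are matches of letters and not measured binding sites.

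SOX9 (chr17:72121020-72126416) encodes an HMG-box factor of cartilage, of neural crest and of glial specification, also named among factors of mesenchymal neuroblastoma. It had 13.4, 13.2 and 14.4 FPKM in the knockdown libraries, against 25.4, 25.3 and 24.6 FPKM in the control libraries. The groups lay well apart, and the knockdown held 54.5% of the control mean. SOX9 fell by 0.83 (standard error 0.051, limma adjusted p = 1.26e-06).

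Per length, the order of the levels differed between the groups. In the knockdown it ran TWIST1, SNAI1, ZEB2, ZEB1, SOX9, SNAI2, PRRX2, TWIST2 and PRRX1. In the control it ran TWIST1, PRRX1, SOX9, ZEB2, ZEB1, SNAI1, SNAI2, TWIST2 and PRRX2. Neighbours in these orders whose libraries overlapped were ZEB2 with ZEB1 in both groups and TWIST2 with PRRX2 in the control. The 8 factors other than TWIST1 summed to 79.8 to 82.3 FPKM in the knockdown libraries and to 163 to 166 FPKM in the control libraries, where PRRX1 held 41.0% to 42.2% of that sum. Replicates were tight for most factors. The coefficient of variation exceeded 10% for PRRX1 and TWIST2 in the knockdown, at 96.8% and 25.9%, and for PRRX2 in the control, at 36.1%.

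Family members were also set against each other within each library. The log2 ratio of PRRX1 to PRRX2, each as FPKM + 1, was -3.08, -3.04 and -2.99 in the knockdown libraries, against 4.41, 4.32 and 3.67 in the control libraries. PRRX1 was thus far above PRRX2 in the control and far below it in the knockdown, a difference of -7.17. The log2 ratio of TWIST1 to TWIST2 was 7.44, 7.12 and 7.32 in the knockdown libraries, against 4.64, 4.68 and 4.87 in the control libraries, a difference of 2.56. TWIST1 led in both groups, by more in the knockdown. The log2 ratio of SNAI1 to SNAI2 was 0.66, 0.89 and 0.58 in the knockdown libraries, against 0.42, 0.33 and 0.53 in the control libraries, a difference of 0.28. That of ZEB1 to ZEB2 was -0.051, -0.044 and 0.091 in the knockdown libraries, against 0.039, -0.021 and -0.032 in the control libraries, and these overlapped. Over the 4 pairs, the exact two-sided permutation p was 0.1 for the first 3, the smallest 3 against 3 libraries allow, and 1.0 for ZEB1 to ZEB2. Adjusted over the 4 pairs these were 0.133 and 1.0, so none passed. With a pseudocount of 0.1 the difference was -10.5 for the PRRX pair. The added 1 leaves these ratios partly dependent on the column's scale, and under equal column sums the differences were -6.96 for PRRX, 2.24 for TWIST, 0.26 for SNAI and 0.0032 for ZEB.

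**Figure D2:**
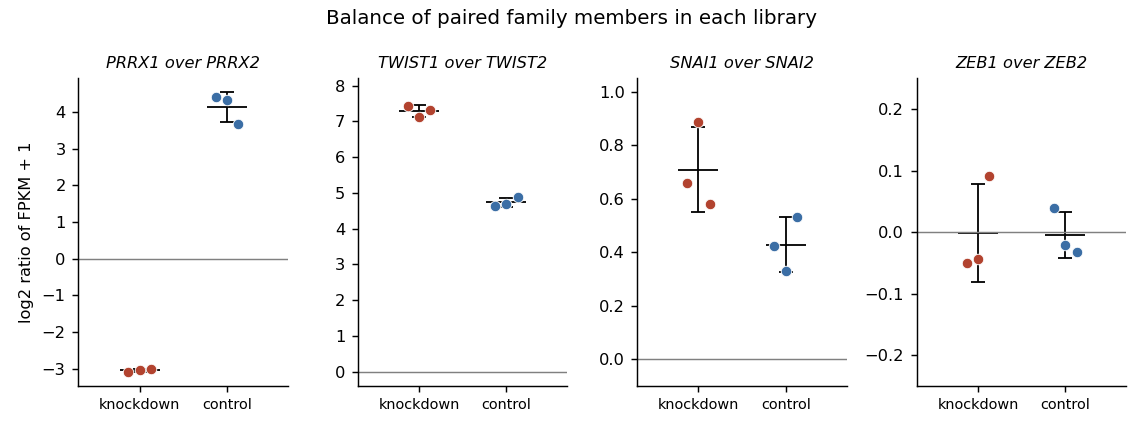
Log2 ratio of FPKM + 1 between paired family members in each library (vertical axes, which differ between panels), with the mean and SD (n = 3 each) and a line at 0. The PRRX ratio changes sign between knockdown and control, the TWIST and SNAI ratios are higher in the knockdown without overlap, and the ZEB ratios straddle 0 in both groups.

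The scaling of the columns matters, and not only for the small changes. Column sums were 2123050 to 2449948 FPKM in the knockdown and 1182985 to 1226728 FPKM in the control, and bringing them to the same sum put the median of all tested genes at -0.82. Under that scaling TWIST1 was still called higher (0.50), and PRRX1, TWIST2, SOX9, ZEB1 and ZEB2 were still called lower. PRRX2, at 0.34, was no longer called. Relative to the median of all genes there, TWIST1 stood at 1.32, PRRX2 at 1.16, SNAI1 at 0.21, SNAI2 at -0.051, ZEB1 and ZEB2 at -0.34 each, SOX9 at -0.87, TWIST2 at -0.92 and PRRX1 at -5.80. With quantile normalization the median of all genes was 0.089, and the same 8 factors were called in the same directions. With 6 abundant small RNAs (RMRP, RPPH1, RN7SK, SNORD3A, RN7SL1 and RN7SL2) left out of the sums, equal sums put the median at -0.047, and again the same 8 factors were called in the same directions. Over all tested genes 4092 were called higher and 4817 lower on the deposited scale, 5365 higher and 3774 lower with quantile normalization, 522 higher and 11689 lower under equal column sums, and 3784 higher and 5154 lower with the small RNAs left out of the sums.

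**Figure D3:**
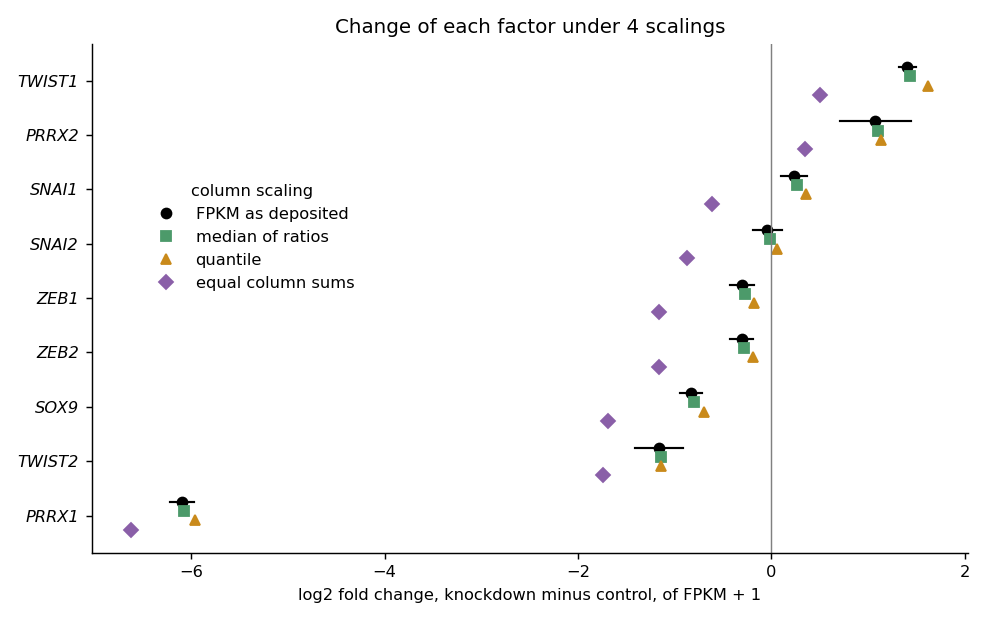
Log2 fold change of FPKM + 1, knockdown minus control, of each factor (horizontal axis) on the deposited scale, with its 95% confidence interval from limma as a black line, and under 3 other column scalings. Equal column sums (diamonds) lie to the left for every factor, by enough to turn SNAI1 from 0.24 to -0.62, while the order of the factors is kept.

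The partners of the TWIST factors were described next, from a list of 9 E-proteins, HAND factors and ID inhibitors. Of the 9 tested, 3 were called higher and 5 lower, with a median log2 fold change of -0.43 beside -0.020 over all tested genes. These are 33.3% and 55.6% of the list, against 30.5% and 35.9% of all tested genes. ID proteins lack a DNA-binding region and hold E-proteins away from bHLH factors. All 4 of their genes fell. ID3 averaged 47.3 ± 0.952 FPKM in the knockdown and 190.2 ± 6.64 FPKM in the control, and ID1 averaged 68.9 ± 4.29 FPKM in the knockdown and 215 ± 6.01 FPKM in the control (SD, n = 3 each). ID2 fell by 0.78 and ID4 by 0.50. Of the E-protein genes, TCF4 fell by 0.43, TCF12 had a log2 fold change of -0.021 and did not pass, and TCF3 rose by 0.45. The sympathetic bHLH genes HAND1 and HAND2 rose by 0.86 and 0.78, and HAND2 averaged 363 ± 28.6 FPKM in the knockdown and 210.0 ± 1.31 FPKM in the control. All 3 rises were negative under equal column sums.

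Among 13 co-repressors that SNAI and ZEB proteins recruit, 4 were called higher and 5 lower (median log2 fold change 0.023). These are 30.8% and 38.5% of the list, near the 30.5% and 35.9% of all tested genes, so the counts are not a result about co-repressors. KDM1A, the histone demethylase LSD1 that Snail binds, averaged 88.4 ± 0.457 FPKM in the knockdown and 58.0 ± 0.257 FPKM in the control. SMARCA4, SIN3A and CTBP2 rose by 0.33, 0.23 and 0.20, and all 4 rises were negative under equal column sums. The LIM-domain genes AJUBA, LIMD1 and WTIP, whose products bind Snail, fell by 0.89, 0.24 and 1.24. EZH2, a histone methyltransferase, and the deacetylase HDAC1 fell by 0.35 and 0.24. With quantile normalization 8 of the list were called higher and 3 lower, and EZH2 and HDAC1 missed the threshold.

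Among 13 genes that set the turnover of SNAI, TWIST and ZEB proteins, 5 were called higher and 3 lower (median log2 fold change -0.048), none by as much as 2-fold. The 61.5% called is near the 66.3% of all tested genes, so the counts are not a result about this list. BTRC, FBXW7 and GSK3A, parts of the machinery that marks these proteins for destruction, rose by 0.46, 0.25 and 0.17, and the kinase genes ATM and CSNK2A1 by 0.40 and 0.20. All 5 were negative under equal column sums. GSK3B, also on the list, was at -0.12 and was not called (limma adjusted p = 0.0527). The ubiquitin ligase genes FBXL14 and FBXL5 fell by 0.49 and 0.43, and COPS2, a signalosome subunit, fell by 0.21. With quantile normalization 7 were called higher and 2 lower, and COPS2 missed the threshold. The number called in this list was 5 without control library 1 in place of 8, where FBXW7, GSK3A and COPS2 missed it. FBXW7 also missed it without knockdown library 1 or control library 3. GSK3A missed it without knockdown library 2 or control library 2 and with equal sums that leave out the small RNAs. GSK3A was also not called without a filter on low values, with a replicate block, or with limma run without its intensity trend.

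The epithelial genes that these factors repress, and the epithelial regulators that oppose ZEB proteins, were mostly too low to test. Of 33 genes 32 were found in the table and 11 passed the filter. CDH1, encoding E-cadherin, averaged 0.0062 FPKM in the knockdown and 0.0045 FPKM in the control. ESRP1, OVOL1 and CRB3 were listed at 0 in all 6 libraries, and GRHL2 averaged 0.152 FPKM in the knockdown and 0.0247 FPKM in the control. Of the 11 tested, 3 were called higher and 6 lower. These are 27.3% and 54.5% of those tested, against 30.5% and 35.9% of all tested genes. KRT18, a keratin of simple epithelia, averaged 9.93 ± 0.105 FPKM in the knockdown and 89.8 ± 3.52 FPKM in the control. Its partner KRT8 averaged 0.335 ± 0.182 FPKM in the knockdown and 4.45 ± 0.333 FPKM in the control, and the claudin CLDN4 averaged 0.970 ± 0.378 FPKM in the knockdown and 5.09 ± 0.150 FPKM in the control. PKP2, OCLN and LLGL2 rose by 0.89, 0.83 and 0.56, and OCLN and LLGL2 missed the threshold under equal column sums.

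Most genes listed as products of the mesenchymal state were lower. Of 28 tested, 25 fell and 2 rose, with a median log2 fold change of -1.82. These are 89.3% and 7.14% of those tested, against 35.9% called lower and 30.5% called higher of all tested genes. Much of this list was already known to be lower in these libraries when it was drawn up, so it is no independent evidence of direction. FN1, fibronectin, averaged 29.0 ± 0.348 FPKM in the knockdown and 620.3 ± 1.88 FPKM in the control. TAGLN, an actin-binding gene, averaged 21.5 ± 1.60 FPKM in the knockdown and 391.5 ± 9.31 FPKM in the control, and the fibronectin receptor gene ITGA5 averaged 0.486 ± 0.0943 FPKM in the knockdown and 21.3 ± 0.797 FPKM in the control. The 2 that rose were the receptor genes PDGFRA, at 64.5 ± 2.26 FPKM in the knockdown and 24.3 ± 1.57 FPKM in the control, and PDGFRB, at 22.1 ± 1.14 FPKM in the knockdown and 12.8 ± 0.235 FPKM in the control, and the PDGFRB difference was negative under equal column sums. S100A4 did not pass, with a log2 fold change of -0.011. Of the 9 fibroblast markers above, 5 were higher and 4 lower. All that fell are in this list, and some that rose are not. The direction therefore holds for the listed genes only.

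Other regulators named for mesenchymal neuroblastoma cells were mostly lower as well. Of 24, 18 were tested, 16 fell and 2 rose, with a median log2 fold change of -1.07. These are 88.9% and 11.1% of those tested, against 35.9% called lower and 30.5% called higher of all tested genes. This list too was chosen with earlier results of these data known, so it is no independent evidence of direction. FOSL1, an AP-1 subunit, averaged 0.386 ± 0.181 FPKM in the knockdown and 21.1 ± 1.35 FPKM in the control, and RUNX1 averaged 0.446 ± 0.157 FPKM in the knockdown and 15.7 ± 0.624 FPKM in the control. IFI16, a nuclear DNA sensor, averaged 0.0903 ± 0.0135 FPKM in the knockdown and 10.1 ± 0.785 FPKM in the control, and the Hippo pathway co-activator YAP1 averaged 1.13 ± 0.168 FPKM in the knockdown and 12.6 ± 0.622 FPKM in the control. ZFP36L1 and CREG1 rose by 0.24 and 0.19 and were called lower under equal column sums. ZFP36L1 also missed the threshold with quantile normalization (limma adjusted p = 0.0516), with equal sums that leave out the small RNAs and with any library other than knockdown library 3 left out, and without control library 3 CREG1 missed it too, so that none of the list was called higher. Of the 6 under the filter, RUNX2, SIX4 and BHLHE41 averaged 0.120, 0.0293 and 0.171 FPKM in the knockdown and 1.77, 1.64 and 1.59 FPKM in the control.

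Of 21 neural crest factors and SOX relatives, 13 were tested, 6 were called higher and 5 lower. These are 46.2% and 38.5% of those tested, against 30.5% and 35.9% of all tested genes, and calls in both directions are common over all genes. TFAP2B, a factor of the sympathetic lineage, averaged 41.0 ± 2.35 FPKM in the knockdown and 14.4 ± 0.312 FPKM in the control, and SOX4 averaged 166.7 ± 8.49 FPKM in the knockdown and 86.6 ± 0.503 FPKM in the control. SOX2, SOX11, SOX12 and FOXC1 rose by 0.68, 0.67, 0.68 and 0.66, and under equal column sums SOX11, SOX12 and FOXC1 were negative and SOX2 and SOX4 missed the threshold. FOXD1 was listed at 0 in all 3 knockdown libraries, against 13.4, 12.1 and 14.2 FPKM in the control libraries. LMO4 averaged 3.12 ± 0.494 FPKM in the knockdown and 20.6 ± 0.637 FPKM in the control, and the homeobox gene MSX1 averaged 0.191 ± 0.149 FPKM in the knockdown and 6.66 ± 0.767 FPKM in the control. MSX2 and ETS1 fell by 0.41 and 0.23, and ETS1 was at -0.069 and not called with quantile normalization. The median log2 fold change was 0.21, or 0.43 without FOXD1. The closest relatives of SOX9 were low, with SOX8 listed at 0 in all libraries and SOX10 at an average of 0.316 FPKM in the knockdown and 0.251 FPKM in the control. Under equal column sums the genes called higher and lower were 0 and 7 among the TWIST partners, 0 and 13 among the co-repressors, 0 and 13 among the stability genes, 1 and 8 among the epithelial genes, 1 and 26 among the mesenchymal products, 0 and 18 among the regulators, and 1 and 9 among the neural crest factors. That scaling called 522 higher and 11689 lower of all 13434 tested genes, so a call of lower was common to most genes there.

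**Figure D4:**
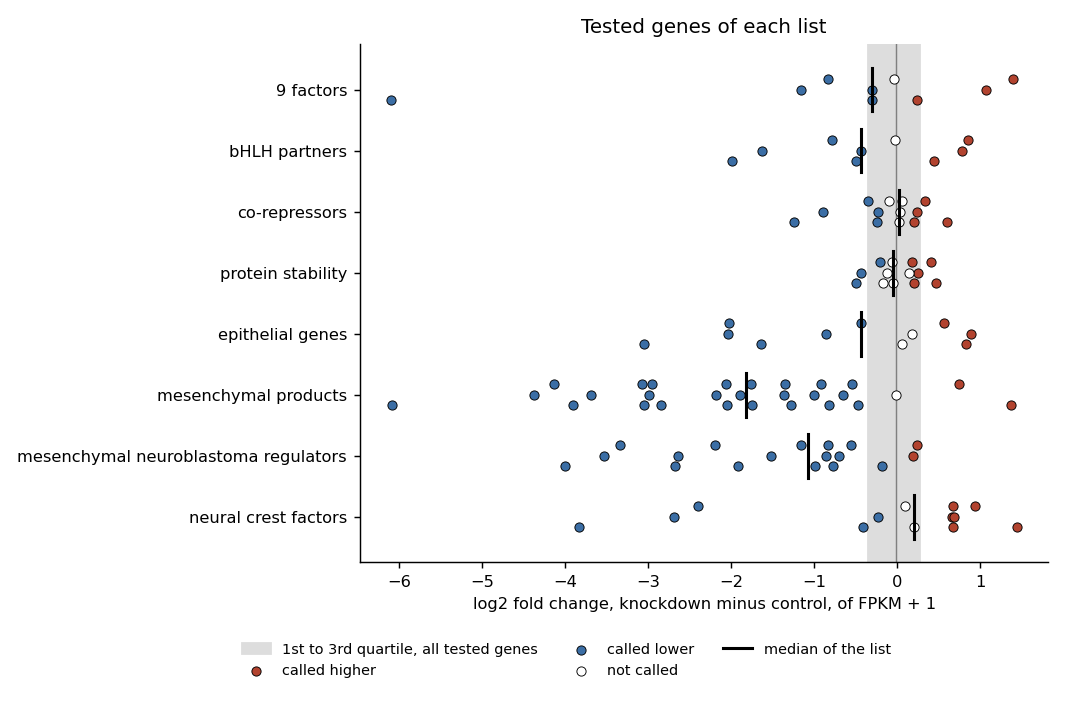
Log2 fold change of FPKM + 1, knockdown minus control, on the deposited scale for the tested genes of the 9 factors and of each list (rows). Points are genes, coloured by limma call, black bars are medians, and the grey band is the range from the 1st to the 3rd quartile of all tested genes. Mesenchymal products and regulators sit mostly left of the band with medians of -1.82 and -1.07, co-repressors and protein stability genes sit around it, and FOXD1, listed at 0 in the knockdown, is the leftmost neural crest point.

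Genes with the most similar profile were found by Euclidean distance over the 6 libraries, with each profile of log2(FPKM + 1) less its control mean. Since the libraries fall into 2 groups, this likeness mainly reflects a change of equal size. For PRRX1 they included ANKRD1 and ODAM, at distances of 0.12 and 0.36. For PRRX2 they were C8orf31, YJEFN3 and DLGAP3 (0.34 to 0.35). For TWIST1 they were TSHZ2, MEIS1 and NEFM (0.085 to 0.093), and for TWIST2 ZFP36L2, PTPRD and GFPT2 (0.19 each). For SNAI1 they were NLGN3, CNOT3 and GSTM3 (0.042 to 0.059), and for SNAI2 they included ZNF766 and RAB4A (0.045 and 0.047). For ZEB1 they were PPP1R8, GARS and CCDC6 (0.036 to 0.038), and for ZEB2 AFF1, SYT11 and ATXN7 (0.041 to 0.053). For SOX9 they were TGIF1, the mesenchymal cadherin CDH11 and DEGS1 (0.048 to 0.062).

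The factors lie at separate places in the genome. Within 1 Mb of PRRX1, 8 genes were tested, 5 were lower and 0 higher, with log2 fold changes of -1.63 to 0.049. Of all tested genes, 35.9% were called lower and 30.5% higher. The nearest on each side of PRRX1 were GORAB, 109 kb away, which fell by 0.48, and PRRC2C, 746 kb away, at 0.049 and not called. Both tested genes within 1 Mb of TWIST1 were lower, HDAC9 by 0.16 and TWISTNB by 0.63, whereas TWIST1 itself rose. Around PRRX2, 7 of 32 tested neighbours were higher and 14 lower, and around SNAI1, 4 of 21 were higher and 7 lower. Of 10 around TWIST2, 2 were higher and 3 lower, of 8 around ZEB1, 2 and 3, and of 3 around SNAI2, 1 and 1. The 1 tested around ZEB2 was not called, and both around SOX9 were lower. Whether these regions changed as a whole was not tested. Antisense transcripts of the factors were low. ZEB1-AS1 had 3.75, 2.53 and 3.64 FPKM in the knockdown libraries, against 2.98, 2.76 and 2.53 FPKM in the control libraries, with groups that overlapped. PRRX2-AS1, SOX9-AS1 and ZEB2-AS1 stayed under 1 FPKM in every library. Whether strand was used in counting is not given in the sources used here. If strand was not used, reads from the bases that PRRX2, ZEB1 and ZEB2 share with their antisense genes cannot be told apart. SOX9-AS1 (chr17:72071042-72120793) does not overlap SOX9.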

How the data were processed

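Per the labels' protocols, poly(A) RNA of stable lentiviral SH-SY5Y lines was made into directional libraries. The authors deposited FPKM for each gene in each library. The submitters' processing notes name TopHat2 2.1.0, SAMtools, Cuffdiff 2.2.1 and the build hg38. No gene annotation, role or setting is named. FPKM does not hold read numbers, so absolute depth is unknown. Relative depth was the modal ratio to control library 1 among values below 0.3 FPKM. Groups came from sample titles.

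Tests used log2(FPKM + 1), a scale that understates changes of low genes. In total, 13434 genes averaging at least 1 FPKM were tested with limma 3.58.1 in R 4.3.3 (intensity trend, two-sided). Simulated data of known change were used to test the script. Family ratios used exact permutation in scipy 1.17.1. Positions and promoters are RefSeq's on GRCh38.p14, the assembly behind hg38, and 98.1% of tested genes matched.

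The 9 factors and the lists were chosen with earlier results of these data known. Named were the factors, TARDBP, and from each list all called genes where 5 or fewer were called in a direction, otherwise the 4 largest; the nearest 3 profiles per factor; other genes were named after their values were seen. A few genes that this rule names are not reported here. Alternatives were pseudocounts, filters, scalings, a replicate block, limma's options and each library left out.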

Additional observations from a re-analysis of the deposited data

How the results depend on the processing

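All 9 factors kept their direction on the deposited scale under the other pseudocounts, filters and limma options in which they were tested (PRRX1 drops out when genes with an exact 0 are removed, and TWIST2 at a minimum mean of 5 FPKM). With equal column sums 1 factor was called higher in place of 3, SNAI1 turned to -0.62, and all 13 protein stability genes were called lower. Of all 13434 tested genes, 11689 were called lower there. SNAI2 turned to 0.053 with quantile normalization, and leaving out single libraries gave -0.094 to 0.012. The number of protein stability genes called was 5 to 9 with single libraries left out. The number of epithelial genes called was 4 with the filter raised to 5 FPKM and 14 without any filter, where fewer or more genes are tested. The PRRX1 to PRRX2 difference was -10.5 and -8.25 at pseudocounts of 0.1 and 0.5, and that of TWIST1 to TWIST2 was 3.17 and 2.83, and 2.24 under equal column sums, a setting chosen after seeing the data. The ZEB1 to ZEB2 difference ran from -0.043 to 0.028 with single libraries left out. Each library's deviations from its group mean were correlated across genes between the groups. Same-numbered libraries gave -0.018, -0.18 and -0.091, and the other pairs gave -0.095 to 0.15. With 3 libraries per group these values cannot decide whether the numbers pair the libraries, and the labels do not say. With a replicate block 3 factors were higher and 5 lower, and 8561 genes were called in place of 8909. The cause of these shifts was not tested.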
